A study of Homo sapiens with 22 samples.

Results

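MYC and 5 immediate-early genes, JUN, FOS, FOSL1, EGR1 and ATF3, were followed through the peak lists of a chromatin immunoprecipitation sequencing (ChIP-seq) study of the linker histone variant H1-10. The regions described are those of any list that touch the hg19 span of a gene widened by 5 kb on each side. The spans are MYC on chromosome 8 at 128748315 to 128753680, JUN on chromosome 1 at 59246463 to 59249785, FOS on chromosome 14 at 75745481 to 75748937, FOSL1 on chromosome 11 at 65659692 to 65667997, EGR1 on chromosome 5 at 137801181 to 137805004, and ATF3 on chromosome 1 at 212738676 to 212794119. The genes were chosen by name, with earlier results of these data known, and not by a threshold on signal. Of 291055 regions in 8 lists, 92 lay in these windows. Each list came from 1 library of 22Rv1 cells, a human line derived from prostate carcinoma. Libraries of H3K27me3, E2F3 and RNA polymerase II phosphorylated on serine 5 (Pol2S5p) were made from cells overexpressing H1-10 (H1-10 OE) and from Ctrl cells. Another pair of Pol2S5p libraries came from cells with an siRNA against E2F3 (siE2F3) and from cells with a control siRNA (siCtrl). The labels of this last pair do not state H1-10 overexpression, whereas the names of the deposited peaks do. Whether the overexpressing cells are 1 clone, and how long the siRNAs acted, is not given in the sources used here. E2F3 itself was not profiled in the siRNA pair. Every group is 1 library, so differences are given as values, without a test and without a check in replicates.

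These genes are textbook early responders. MYC is a transcription factor that drives growth and cell cycle genes, and its promoter is a classic binding place of E2F factors. JUN, FOS and FOSL1 encode partners of the AP-1 dimer, EGR1 is a zinc finger factor, and ATF3 is a stress-induced factor that also pairs with JUN. Such genes are held ready for rapid induction, often with polymerase engaged near the start and with serum response elements (CArG boxes) or cyclic AMP response elements (CREs) in the promoter. Serine 5 phosphorylation marks polymerase that has begun transcription, and H3K27me3 is laid down by Polycomb at silenced genes.

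Initiating polymerase was found at all 6 genes in every Pol2S5p list, and E2F3 was found at all 6 in Ctrl but at 2 in H1-10 OE. The whole E2F3 lists hold 22988 regions in Ctrl and 4296 in H1-10 OE, and 97.4% of all Ctrl regions had no overlap in H1-10 OE. With both E2F3 lists cut to equal numbers of their strongest regions, E2F3 was found at 4 in Ctrl and 2 in H1-10 OE. At a -log10 q of at least 5 it was found at 6 in Ctrl and 1 in H1-10 OE. H3K27me3 was found at ATF3 in H1-10 OE and at none of the 6 genes in Ctrl. The numbers of regions in the 6 windows were 1 in H1-10 OE and 0 in Ctrl for H3K27me3, 2 in H1-10 OE and 14 in Ctrl for E2F3, and 20 in H1-10 OE and 12 in Ctrl for Pol2S5p. The siE2F3 list held 24 Pol2S5p regions there and the siCtrl list 19. The base at the gene start lay in a Pol2S5p region at 5 of the 6 genes in H1-10 OE and 4 in Ctrl, and at 5 in siE2F3 and 5 in siCtrl. The whole lists hold between 2540 and 83650 regions and read depth is unknown, so these counts are not read as a change at the genes. Fold enrichments quoted are the authors' values over the background of their caller, and strength is given as the share of the same list with a lower -log10 p. Levels are not compared between lists.

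**Figure D1:**
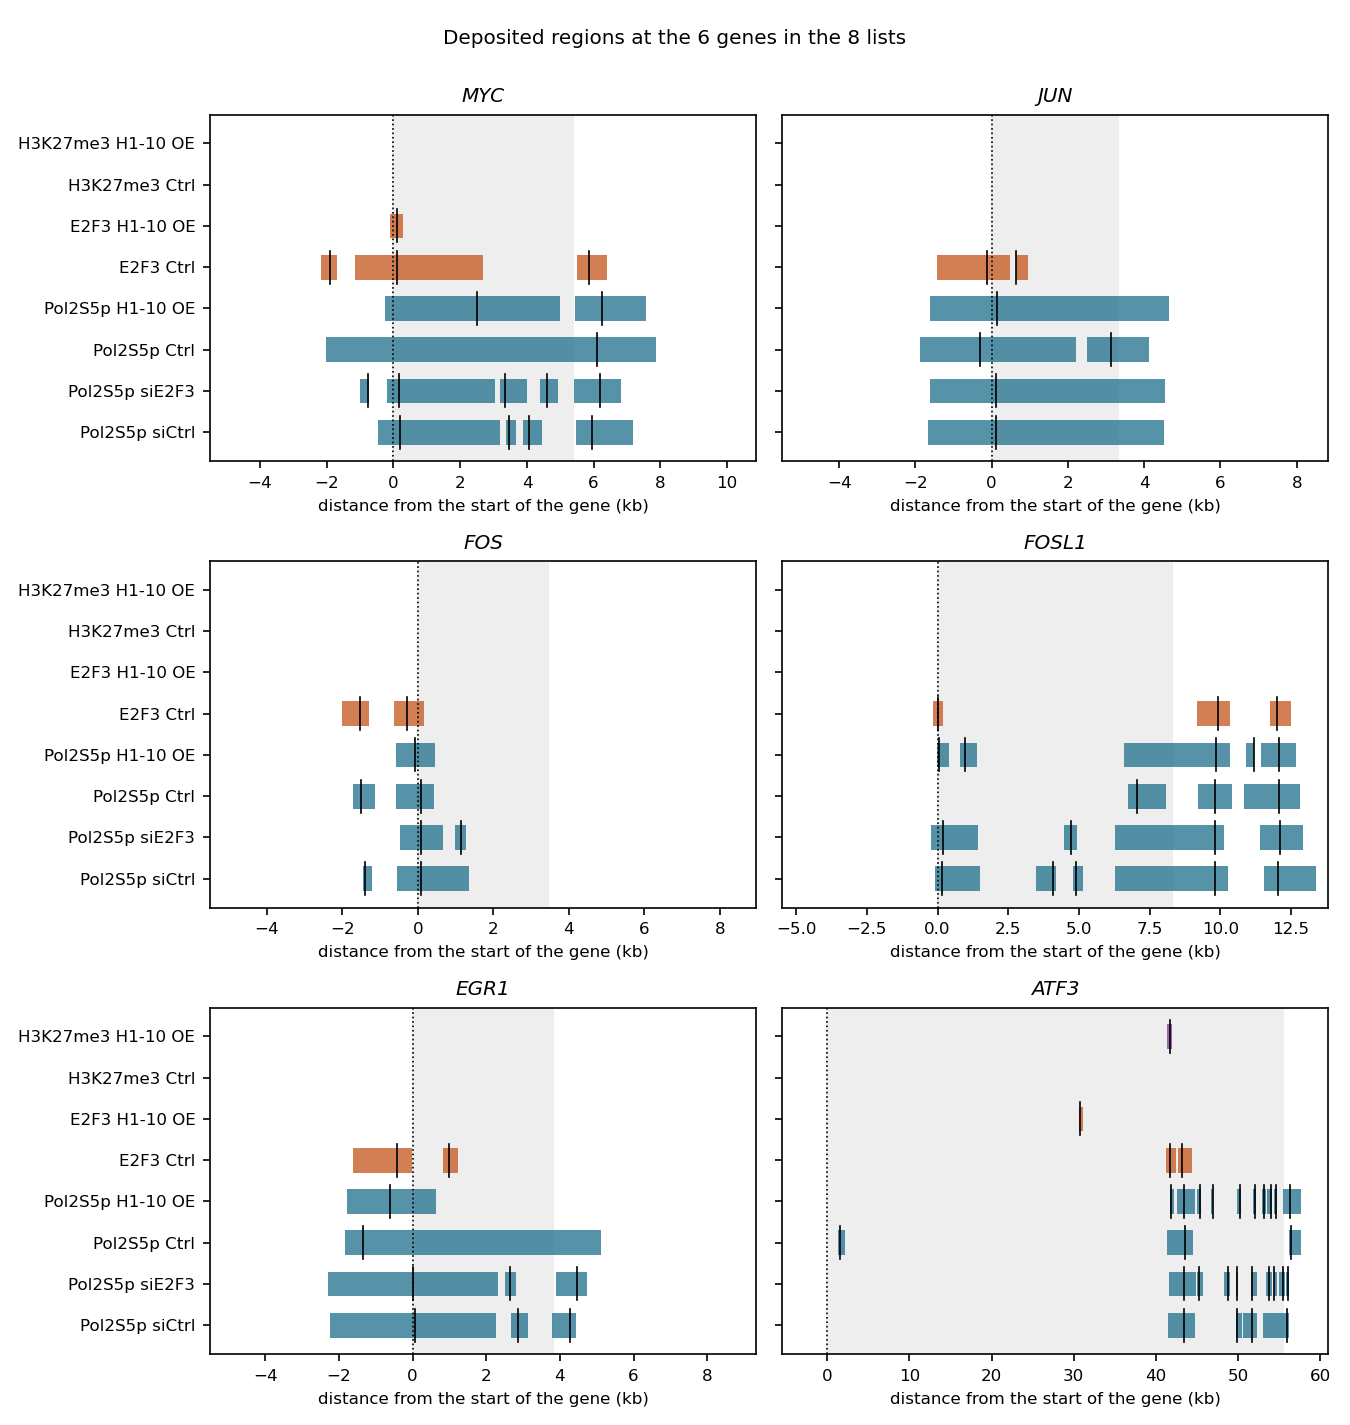
Deposited regions at MYC, JUN, FOS, FOSL1, EGR1 and ATF3 in the 8 lists, against distance in kb from the start of each gene along its direction of transcription. Bars are regions, black ticks their summits, the grey band the gene span and the dotted line its start; Pol2S5p bars are present in all 4 of its lists at every gene, and E2F3 bars at every gene in Ctrl.

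MYC held the strongest E2F3 region of the 6 windows, and it was the gene whose E2F3 region in Ctrl also appeared in H1-10 OE. In H1-10 OE, E2F3 formed a region of 382 bp with a fold of 5.46, from 91 bp before to 290 bp after the start. In Ctrl it formed a region of 3835 bp with a fold of 80.7, from 1166 bp before to 2668 bp after the start. The summits of these regions lay 6 bp apart, at 101 and 95 bp inside the gene in H1-10 OE and in Ctrl. The Ctrl region was stronger than 99.9% of its list, and the H1-10 OE region than 85.1% of its own. Of all Ctrl regions in the strongest 10% of that list, to which it belongs, 16.9% were found in H1-10 OE. Another 2 E2F3 regions of Ctrl, with summits 1902 bp upstream and 5865 bp downstream of the start, had no counterpart in H1-10 OE. The E2F3 library of H1-10 OE gave the shortest list of the factor, and a place without a region there is not shown to lack E2F3. Of the 2 E2F3 regions of H1-10 OE, that at MYC overlapped Pol2S5p in all 4 of its lists, while 30.2, 13.0, 15.0 and 18.2% of all E2F3 regions of H1-10 OE overlapped Pol2S5p of H1-10 OE, Ctrl, siE2F3 and siCtrl.

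Pol2S5p covered most of MYC in each list, in pieces of different length. The covered length in the window was 7369 bp in H1-10 OE and 9895 bp in Ctrl, and 6235 bp in siE2F3 and 6239 bp in siCtrl. In Ctrl this was 1 region, from 2035 bp before the start to 7859 bp after it, wider than 99.3% of its list. In H1-10 OE there were 2 regions of 5240 and 2129 bp, the longer beginning 245 bp before the start. The siE2F3 list held 5 regions and the siCtrl list 4. The strongest summit lay 2518 bp inside the gene in H1-10 OE and 6113 bp from the start, beyond the gene's end, in Ctrl. It lay 175 bp from the start in siE2F3 and 188 bp in siCtrl, so only the lists of the siRNA pair had it within 500 bp of the start.

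**Figure D2:**
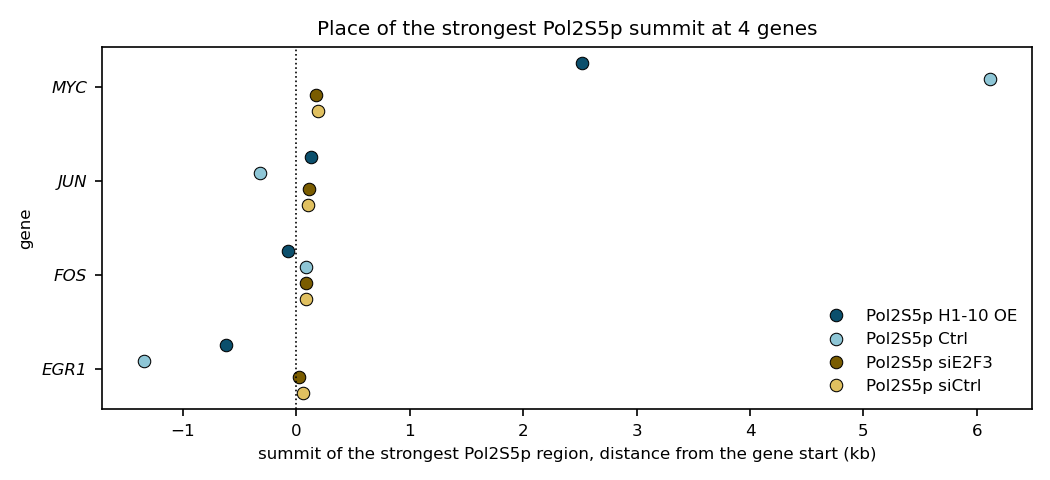
Summit of the strongest Pol2S5p region at MYC, JUN, FOS and EGR1, as distance in kb from the gene start, 1 point per list. The points of JUN span 449 bp and those of FOS 156 bp, against 5938 bp at MYC and 1398 bp at EGR1.

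Upstream of MYC, the H3K27me3 list of H1-10 OE held a block of regions. Between 5 and 100 kb upstream of the gene, H3K27me3 formed 24 regions in H1-10 OE and 0 in Ctrl. The lists hold 18395 regions in H1-10 OE and 2540 in Ctrl, and 97.2% of all H1-10 OE regions had no overlap in Ctrl, so the 0 in Ctrl is not read as a difference at MYC. They lay from 12.6 to 83.1 kb before the start, with folds between 2.90 and 6.21 and a median width of 561.5 bp. Only 6 of the 24 reached a -log10 q of 5, and the median region was stronger than 57.6% of its list, so the block is made of regions of ordinary strength. Tiles of 95 kb over the genome held at least 24 H3K27me3 regions of H1-10 OE in 0.241% of 31946 cases, and none in 84.9%, a count made after the block had been seen. Neither flank of the other 5 genes held H3K27me3 in either list. No Pol2S5p list had a region in the upstream flank of MYC, and E2F3 had 1 there, in Ctrl. On the other side, a Pol2S5p region with its summit 58.5 kb downstream of the start was present in all 4 lists and coincided with an E2F3 region of Ctrl, of fold 21.9, that had no counterpart in H1-10 OE. The next gene on that side in the RefSeq table of GRCh38.p14 is PVT1, a long noncoding RNA gene; its start on hg19 was not looked up here.

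**Figure D3:**
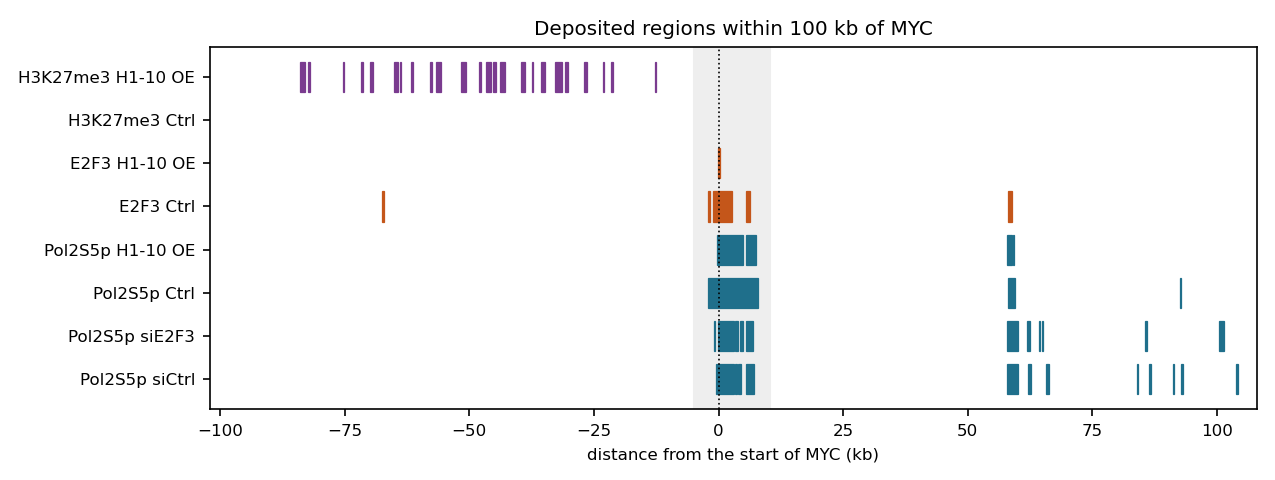
Deposited regions within 100 kb of MYC in the 8 lists, against distance in kb from its start; the grey band is the gene with 5 kb on each side. The 24 H3K27me3 regions of H1-10 OE lie upstream, and the Pol2S5p regions at 58.5 kb recur in all 4 lists.

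JUN carried broad Pol2S5p that ran past both ends of the gene. The covered length in its window was 6275 bp in H1-10 OE and 5717 bp in Ctrl, and 6170 bp in siE2F3 and 6182 bp in siCtrl. H1-10 OE, siE2F3 and siCtrl each had 1 region there, beginning 1626, 1624 and 1670 bp before the start. Ctrl had 2, of 4085 and 1632 bp, parted between 2209 and 2502 bp inside the gene. The region was stronger than 99.9% of its list in H1-10 OE, with a fold of 63.6; the stronger Ctrl region, with a fold of 25.1, exceeded 97.2% of its own. The fold was 33.0 in siE2F3 and 26.9 in siCtrl. E2F3 covered the JUN start in Ctrl with a region of 1905 bp and fold 16.5, next to a weaker region of 327 bp inside the gene. H1-10 OE had no E2F3 region in this window, and its nearest lay 330380 bp from the stronger Ctrl region.

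At FOS, Pol2S5p was narrow and centred on the start. Regions over the start measured 1034 bp in H1-10 OE and 1004 bp in Ctrl, and 1146 bp in siE2F3 and 1898 bp in siCtrl. Their folds were 19.4 in H1-10 OE and 20.5 in Ctrl, and 26.5 in siE2F3 and 31.0 in siCtrl. The share of the FOS span that was covered was 13.1% in H1-10 OE and 12.7% in Ctrl, against 28.2% in siE2F3 and 39.1% in siCtrl, so the gene body was largely without regions in the H1-10 pair. A weaker site about 1.5 kb upstream was found in fewer lists. Pol2S5p had a region there in Ctrl, with its summit 1501 bp before the start and a fold of 5.62, and in siCtrl, at 1392 bp and a fold of 2.84. Neither H1-10 OE nor siE2F3 had a region at that site. The nearest Pol2S5p region of H1-10 OE lay 547 bp from the Ctrl region, and that of siE2F3 730 bp from the siCtrl region. The siCtrl region was stronger than only 1.91% of its list. Of all Pol2S5p regions in the same 10% class of strength, 59.4% of those of Ctrl overlapped H1-10 OE. For siCtrl, 38.4% overlapped siE2F3, so regions of this strength without a partner are common. E2F3 of Ctrl overlapped the upstream site as well, with a summit 1540 bp before the start and a fold of 9.70, and held another region over the start with a fold of 13.2. H1-10 OE had no E2F3 region in the FOS window.

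FOSL1, which encodes the AP-1 partner FRA1, differed in whether its start was covered. A Pol2S5p region lay over the start in H1-10 OE, siE2F3 and siCtrl and in Ctrl there was none. In H1-10 OE this region was 443 bp long, had a fold of 5.31 and was stronger than 50.9% of its list; its summit was 65 bp inside the gene. A further region of 593 bp followed at 977 bp. The nearest Pol2S5p region of Ctrl to the start region lay 6336 bp away. Of all Pol2S5p regions of H1-10 OE in the same 10% class of strength, 56.5% overlapped a region of Ctrl. A region of this strength without a partner in Ctrl is thus common in the list. In siE2F3 the region over the start measured 1678 bp with a fold of 9.19, and in siCtrl 1575 bp with a fold of 7.37. Of the 500 bp on each side of the start, Pol2S5p covered 44.3% in H1-10 OE and 0% in Ctrl, and 73.1% in siE2F3 and 58.1% in siCtrl. E2F3 had no region over the start in H1-10 OE and 1 in Ctrl, of 338 bp and fold 7.88, with its summit 10 bp inside the gene. This made it the E2F3 region of Ctrl in the 6 windows that overlapped Pol2S5p in each list but that of Ctrl itself.

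The stronger Pol2S5p summits of the FOSL1 window lay outside the gene, beyond its 3′ end. The region with the strongest summit reached back into the gene in 3 lists, beginning 6605 bp from the FOSL1 start in H1-10 OE, 6258 bp in siE2F3 and 6262 bp in siCtrl. In Ctrl it began at 9219 bp, past the gene's end, and a separate region lay between 6746 and 8092 bp. The strongest summit was 9830 bp from the FOSL1 start in H1-10 OE and 9818 bp in each of Ctrl, siE2F3 and siCtrl, and its fold was 26.5 in H1-10 OE and 33.2 in Ctrl, and 14.6 in siE2F3 and 33.5 in siCtrl. Another summit lay 12077 bp away in H1-10 OE and 12078 bp in Ctrl, and 12119 bp in siE2F3 and 12043 bp in siCtrl. In the RefSeq table of GRCh38.p14 the genes next to FOSL1 on that side are CCDC85B and FIBP. E2F3 of Ctrl also had regions beyond the 3′ end, with summits 12003 and 9898 bp from the FOSL1 start and folds of 19.4 and 14.2. Both were stronger within their list than the E2F3 region over the start. H1-10 OE had no E2F3 region in the FOSL1 window. All regions beyond the 3′ end are counted in the window but were not assigned to a gene.

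EGR1 showed the widest difference in covered share of the span between H1-10 OE and Ctrl among the 6 genes. Pol2S5p covered 17.0% of the span in H1-10 OE and all of it (100.0%) in Ctrl, and 68.8% in siE2F3 and 72.3% in siCtrl. The region of H1-10 OE was 2433 bp long and ended 649 bp inside the gene, whereas that of Ctrl was 6971 bp long and ended 5128 bp from the start, past the gene's end. Both covered the 500 bp on each side of the start completely, as did siE2F3 and siCtrl. The fold of the strongest region was 14.1 in H1-10 OE and 22.2 in Ctrl, and 15.2 in siE2F3 and 17.5 in siCtrl. The siRNA pair, whose peak names carry H1-10 overexpression, thus had further regions in the gene that the H1-10 OE list lacked. E2F3 of Ctrl lay just upstream, from 1612 to 3 bp before the start with a fold of 24.5, and in a weaker region 986 bp inside the gene. In H1-10 OE no E2F3 region lay in the EGR1 window.

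**Figure D4:**
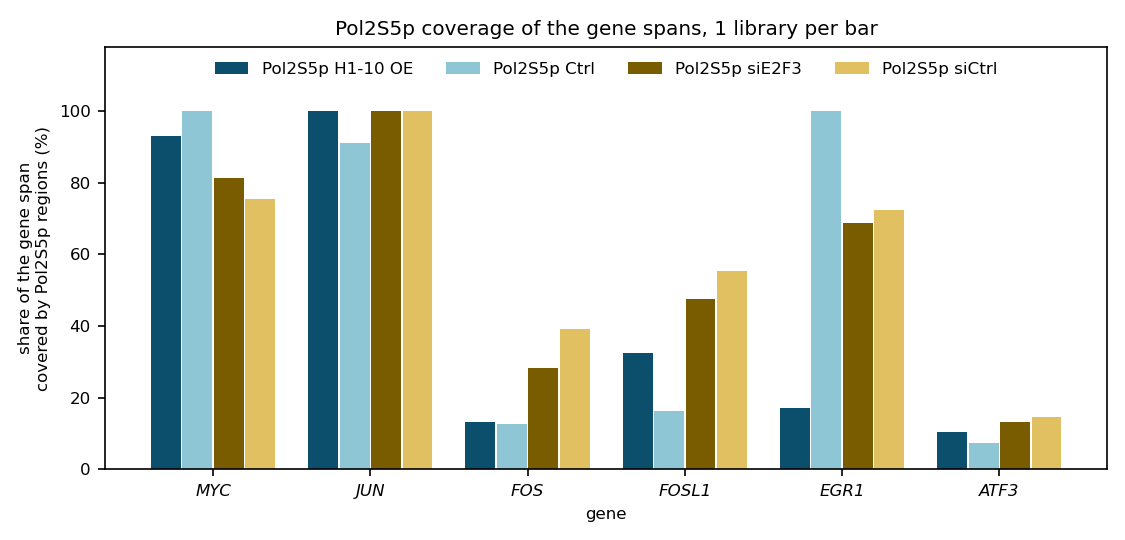
Share of each gene span covered by Pol2S5p regions, in percent, in the H1-10 OE, Ctrl, siE2F3 and siCtrl lists, 1 library per bar and no error bars. EGR1 stands at 17.0% in H1-10 OE against 100.0% in Ctrl, and JUN at 91.2% in Ctrl against 100.0% in the other lists.

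The promoters of EGR1, FOS and JUN are shown because Pol2S5p covered the start of these genes in all 4 lists, and E2F3 of Ctrl lay at or just before it. The E2F3 summits of Ctrl lay 428 bp before the hg19 start at EGR1, 296 bp at FOS and 125 bp at JUN. At EGR1 and FOS this is farther out than the 250 bases shown, so the sequence at those summits was not searched. The sequences are RefSeq's, with GRCh38.p14 coordinates, and give the 250 bases before the start from 5′ to 3′; they were not placed on hg19. Capitals mark CArG boxes and TGACG, the half-site of the CRE, on either strand.
EGR1 (GRCh38.p14, chr5:138465229-138465478, plus strand): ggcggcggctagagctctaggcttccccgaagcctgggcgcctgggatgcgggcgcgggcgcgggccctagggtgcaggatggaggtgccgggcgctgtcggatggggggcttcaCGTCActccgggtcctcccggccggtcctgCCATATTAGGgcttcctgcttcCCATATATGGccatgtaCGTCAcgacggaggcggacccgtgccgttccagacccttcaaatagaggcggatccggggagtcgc
FOS (GRCh38.p14, chr14:75278578-75278827, plus strand): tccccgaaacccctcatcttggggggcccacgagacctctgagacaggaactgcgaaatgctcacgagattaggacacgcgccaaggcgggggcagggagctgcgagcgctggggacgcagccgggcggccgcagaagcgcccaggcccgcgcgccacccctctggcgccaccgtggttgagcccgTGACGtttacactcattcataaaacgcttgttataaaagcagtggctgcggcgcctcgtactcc
JUN (GRCh38.p14, chr1:58784048-58784297, minus strand): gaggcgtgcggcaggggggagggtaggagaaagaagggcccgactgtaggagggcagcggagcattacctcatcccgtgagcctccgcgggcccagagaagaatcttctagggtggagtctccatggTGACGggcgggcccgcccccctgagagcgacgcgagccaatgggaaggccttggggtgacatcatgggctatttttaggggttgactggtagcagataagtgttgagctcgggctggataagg

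EGR1 held 2 CArG boxes, beginning 105 and 83 bases before the start, and 2 TGACG half-sites, at 135 and 66 bases. FOS held 1 TGACG at 64 bases and JUN 1 at 123 bases, and neither had a CArG box in this window. CArG boxes occurred in 1.16% and TGACG in 21.2% of the 35116 RefSeq promoter windows of the same length. The half-site was added after the sequences were seen. No match was found in these 3 promoters, or in the 2 of ATF3, to TTTCCCGC or TTTGGCGC (forms of the E2F site), TGACGTCA (the full CRE), TGANTCA (AP-1) or CACGTG (E-box) on either strand. These letters occur in 1.39, 0.550, 1.65, 6.57 and 6.34% of all windows, in that order. RefSeq promoters were matched for 4 of the 6 genes and not for MYC and FOSL1. The 2 windows of ATF3 begin at 212565157 and 212614768 on chromosome 1 of GRCh38.p14. Neither was placed on hg19 or matched to the internal ATF3 site of E2F3 and Pol2S5p described next. The motifs at that site are therefore not known from this search.

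ATF3 differed from the other genes in where the signal lay and in carrying H3K27me3. The gene is known to start from an internal promoter as well as from the upstream start used here as its origin. The strongest Pol2S5p summit lay far inside the span in every list, 43453 bp from the upstream start in H1-10 OE and 43484 bp in Ctrl, and 43471 bp in siE2F3 and 43464 bp in siCtrl. These regions were stronger than 98.4% of the H1-10 OE list and 98.2% of the Ctrl list, and than 99.6% and 99.8% of the siE2F3 and siCtrl lists. No list of any target covered the upstream start, the nearest being a Pol2S5p region of Ctrl with its summit 1544 bp inside the gene. E2F3 of Ctrl had 2 regions at the internal site, with summits at 41653 and 43206 bp and folds of 30.6 and 29.2. In H1-10 OE the only E2F3 region of the ATF3 window lay elsewhere, at 30755 bp, with a fold of 5.33 and no overlap with any other list.

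The H3K27me3 region of H1-10 OE at ATF3 measured 663 bp with a fold of 6.51, and was stronger than 98.4% of its list. Its summit lay 41691 bp from the upstream start, at the edge of the internal Pol2S5p cluster, and the nearest H3K27me3 region of Ctrl was 818714 bp away. The whole of it lay within an E2F3 region of Ctrl. It overlapped Pol2S5p over 257 bp in H1-10 OE and 598 bp in Ctrl, and over 368 bp in siE2F3 and 537 bp in siCtrl. Among all H3K27me3 regions of H1-10 OE, 1.03% overlapped Pol2S5p of H1-10 OE and 3.27% overlapped E2F3 of Ctrl. The Ctrl list had no H3K27me3 region within the 6 windows, which is not shown to be an absence of the mark, since that list is the shortest of the 8.

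Within ATF3, beyond the internal site, Pol2S5p regions ran on towards the 3′ end except in Ctrl. Between 45 kb and the end of the span there were 7 summits in H1-10 OE and 0 in Ctrl, and 6 in siE2F3 and 2 in siCtrl. Regions covered 29.7% of this stretch in H1-10 OE and 0% in Ctrl, and 38.2% in siE2F3 and 45.9% in siCtrl. The regions of H1-10 OE were between 290 and 572 bp long, and none was stronger than 41.5% of its list. In their 10% classes of strength, between 26.4 and 44.9% of all Pol2S5p regions of H1-10 OE overlapped a region of Ctrl. Regions of this strength without a partner in Ctrl are thus the more common case in the list. The stretch was chosen after its values were seen. A region with its summit past the 3′ end was found in each Pol2S5p list. The summit lay between 56053 and 56447 bp from the upstream start in siE2F3, H1-10 OE and Ctrl, and at 55965 bp in siCtrl. The siCtrl region, of 3140 bp, began inside the gene.

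Setting each pair of lists side by side asks which of these regions were found with and without added H1-10, or with and without E2F3 targeted. For Pol2S5p, 9 of the 20 H1-10 OE regions (exact 95% interval of the share 23.1 to 68.5%) had no overlap in Ctrl, where 42.8% of all H1-10 OE regions had none. They were 2 at FOSL1, including that over the start, and 7 in ATF3. With 50% reciprocal overlap the number was 14, with regions within 1 kb joined it was 3, and with a -log10 q of at least 5 it was also 3. In the other direction 2 of the 12 Ctrl regions (16.7%, 2.09 to 48.4%) had no overlap in H1-10 OE, against 41.0% of all Ctrl regions; they were the upstream site of FOS and the region near the upstream start of ATF3. With 50% reciprocal overlap this number was 6, and with regions within 1 kb joined 1. Each of the 6 regions of H1-10 OE and each of the 6 of Ctrl that belonged to the strongest 10% of its list was shared; of all such regions 1.63% in H1-10 OE and 1.80% in Ctrl were not. Intervals cover counting error only, and neighbouring regions of 1 gene share their source.

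For E2F3, 1 of the 2 H1-10 OE regions had no overlap in Ctrl, where 85.9% of all H1-10 OE regions had none, and 13 of the 14 Ctrl regions (92.9%, 66.1 to 99.8%) had none in H1-10 OE, where 97.4% of all Ctrl regions had none. The share at the 6 genes was thus near that of all Ctrl regions. With equal numbers of the strongest regions in both lists, 4 Ctrl regions stood in Ctrl only. That cut also leaves fewer Ctrl regions in the windows, so the 4 is not a share to set beside 13 of 14. Most E2F3 regions of Ctrl lay on polymerase: 11 of 14 (49.2 to 95.3%) overlapped Pol2S5p of H1-10 OE and 13 (66.1 to 99.8%) that of Ctrl. For siE2F3 the number was 12 (57.2 to 98.2%) and for siCtrl 13 (66.1 to 99.8%). Of all E2F3 regions of Ctrl, 64.6, 68.0, 67.8 and 70.6% did so, in the same order. Each interval holds the share over all regions, so the 6 genes are not shown to differ from the list. Polymerase was thus listed at JUN, FOS, FOSL1 and EGR1 in H1-10 OE without a listed E2F3 region. For H3K27me3, the ATF3 region had no overlap in Ctrl, nor had 97.2% of all H1-10 OE regions; in the other direction Ctrl had no region in the windows to compare, and 77.6% of all Ctrl regions had no overlap in H1-10 OE.

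The Pol2S5p regions of the 6 genes were next set side by side between siE2F3 and siCtrl. Of the 24 siE2F3 regions 3 (12.5%, 2.66 to 32.4%) had no overlap in siCtrl, against 22.9% of all siE2F3 regions. They lay 774 bp upstream of MYC and at 45262 and 48717 bp in ATF3. Of the 19 siCtrl regions 2 (10.5%, 1.301 to 33.1%) had no overlap in siE2F3, against 30.6% of all siCtrl regions. These were the upstream site of FOS and a region 4092 bp inside FOSL1. Each interval holds the share over all regions. The intervals are wide and take neighbouring regions of 1 gene as separate, so they do not decide whether the genes are like or unlike their lists. The counts depended on what counts as shared: with 50% reciprocal overlap 14 siE2F3 and 9 siCtrl regions had no partner, and with regions within 1 kb joined 0 in either direction. All 7 siE2F3 and all 6 siCtrl regions in the strongest 10% of their lists were shared, as were all such regions of the lists at large. Total Pol2S5p over the 6 windows came to 35.0 kb in siE2F3 and 37.4 kb in siCtrl, and to 31.4 kb in H1-10 OE and 34.2 kb in Ctrl.

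**Figure D5:**
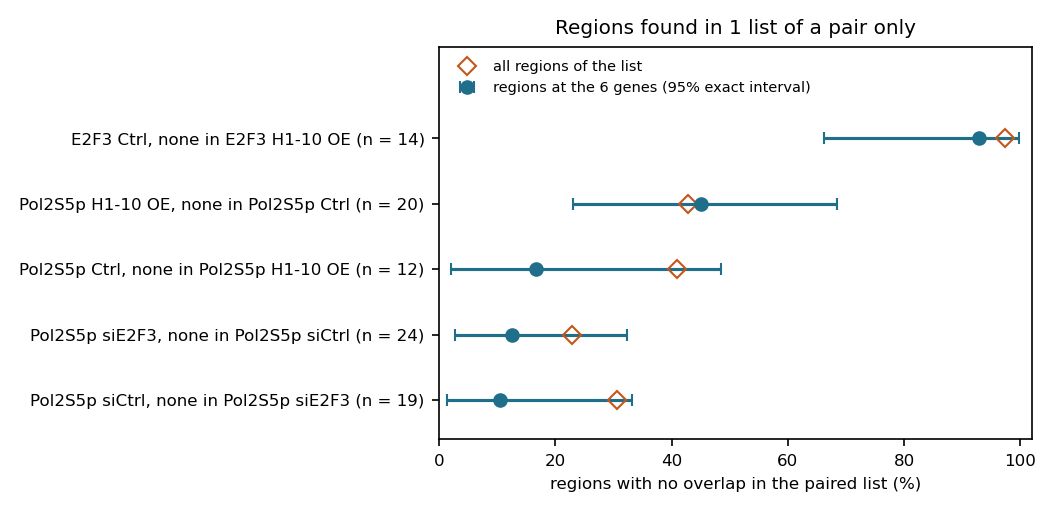
Share of the regions of a list, in percent, with no overlap in its paired list. Circles with exact 95% intervals are the regions at the 6 genes and open diamonds all regions of the same list; each diamond that has a circle lies within the interval of that circle.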

How the data were processed

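Peak lists of 8 of the 22 samples were used, 1 library per group; 14 samples (10 inputs and 4 libraries of H1-10 itself) were not analysed here. Groups follow the sample titles. The genome build is hg19 and the tools named are Bowtie, fastp and FastQC, per the submitters' processing notes. For the peak caller and its settings, none is given in the sources used here. Each deposited list was called by the authors on 1 library and holds a peak score, a fold enrichment (a ratio to the caller's background), -log10 p, -log10 q and a summit offset in bp. The lowest deposited -log10 q in any list is between 1.30 and 1.35. Read depth is unknown.

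Regions overlapping by at least 1 bp were counted as shared, and coordinates are 1-based. Gene starts are the ends of the given spans; the strands of MYC and FOSL1 are general knowledge and the others are RefSeq's. The genes and lists were chosen with earlier results of these data known. All 6 genes are named; the rule took each region of a window where a list had 5 or fewer, and otherwise the strongest by -log10 q, that at the start and the strongest found in 1 list only. The text gives the weaker of these by count, length or coverage. Other immediate-early genes and prostate markers were not looked up, because no hg19 annotation was used here. Counts were recomputed with the span alone, with 10 kb around it, with 50% reciprocal overlap, after joining within 1 kb, with lists cut to the same length by strength, and at a -log10 q of 5 or more. One more, chosen with the data in view, put siCtrl in place of H1-10 OE. Finding overlaps was tested on simulated data, 2000 regions copied from a list and moved by less than their width. The lists were Pol2S5p of Ctrl, with 35493 regions, and E2F3 of Ctrl, with 22988. All 2000 source regions were found in each, which so small a shift ensures. A direct comparison of each region with each copy gave the same answer, with 0 regions differing in either list. Tools were matplotlib 3.10.9, scipy 1.17.1, pandas 2.3.3 and numpy 2.4.6 under Python 3.11.15.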

Additional observations from a re-analysis of the deposited data

How the results depend on the processing

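The number of windows with a region kept within 1.5 times its value in 31 of 32 recomputations over the 8 lists. The exception was E2F3 of H1-10 OE, with 1 window in place of 2 at a -log10 q of at least 5. E2F3 of Ctrl stood at that limit, with 4 windows in place of 6, with equal numbers of the strongest regions. Counts of regions found in 1 list only moved more. With the span alone, E2F3 in Ctrl only came to 7, Pol2S5p in Ctrl only to 1 and Pol2S5p in siCtrl only to 1. At a -log10 q of at least 5, E2F3 in H1-10 OE only came to 0 and Pol2S5p in H1-10 OE only to 3. Equal numbers of the strongest regions gave 4 for E2F3 in Ctrl only, with fewer Ctrl regions left in the windows. With 50% reciprocal overlap the counts were 2 for E2F3 in H1-10 OE only, 14 and 6 for Pol2S5p in H1-10 OE only and in Ctrl only, and 14 and 9 for siE2F3 only and siCtrl only. Joining regions within 1 kb gave 8 for E2F3 in Ctrl only, 3 and 1 for Pol2S5p in H1-10 OE only and in Ctrl only, and 0 for both siE2F3 only and siCtrl only. With siCtrl in place of H1-10 OE, added after the data were seen, 6 Pol2S5p regions had no overlap in Ctrl and 2 of Ctrl had none in siCtrl. The cause was not tested. No paired analysis was possible because each group has 1 library. The lists give no read counts, so depth limits every absence of a region here.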
